A study of Mus musculus with 4 samples.

Results

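The 9 genes described here encode proteins of the epithelial tight junction: the claudins Cldn2, Cldn3, Cldn4, Cldn7, Cldn15 and Cldn23, the occludin gene Ocln, Tjp1 and F11r. They were taken by symbol from the 31053 genes of the deposited matrices, and all 9 were found. Their UMIs (unique molecular identifiers, each marking 1 captured transcript) were summed per cell type and library. Single cells positive for the red reporter TOM had been sorted from mouse duodenal crypts and made into 10x Genomics 3' libraries, 2 per genotype. The WT libraries came from Atoh1CreER-T2;R26RTom mice. For the APC-KO libraries the sample labels give Atoh1Cre;Apcfl/fl;R26RTom, while the series text writes Atoh1CreER-T2 for both genotypes. All mice had received tamoxifen at 1 mg/mL in 2 injections given 24 h apart and were killed 12 h later. Atoh1, which drove the recombinase, is a gene of the secretory lineage, so the recombinase and the sort both chose the cells. Age, sex, animal and batch are not given per library, and p-values below measure only the spread between these libraries, which may be technical.

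Tight junctions close the space between neighbouring epithelial cells. Claudins span the membrane and set which ions pass between cells: some form channels and others seal. Occludin and the immunoglobulin-like adhesion protein JAM-A (F11r) are further membrane components, and ZO-1 (Tjp1) is the scaffold that ties them to actin. Along the intestine, channel-forming and sealing claudins are made in different places, and Cldn2 is known as a claudin of the crypt.

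The authors' tables kept 4814 and 3821 cells of WT replicates 1 and 2 and 356 and 6243 cells of APC-KO replicates 1 and 2, with 3009636 UMIs in APC-KO replicate 1 and 21003179 to 27285079 in the others. Their 12 cell type names are printed as deposited. APC-KO replicate 1 had at least 20 cells only in EC (45), GOBLET-PRE (184) and GOBLET (28), while every other library had at least 65 cells of each type. Any pair of libraries shared 1 to 8 kept barcodes. Marker genes of enterochromaffin, goblet, Paneth, tuft, stem and other endocrine cells had their highest summed level in EC, GOBLET, PANETH, TUFT, ISC and NON-EC, respectively. Enterocyte markers were highest in ENTERO-PRO and cycling markers in SEC-PRO. Markers of secretory progenitors were highest in EEC-PRE, followed by TUFT, and not in SEC-PRO. Marker sums of stroma were at most 0.126 CPM (the usual scaling of counts by the total UMIs of their sum) and those of immune cells at most 7.35 CPM in the WT mean of any type. Those of endothelium reached 28.8 CPM in EC, and those of red cells 103 CPM in GP (205 CPM in WT replicate 1). Apc, the targeted gene, stood at 87.2 and 77.9 CPM in the WT libraries and at 88.1 CPM in each APC-KO library over all kept cells, which checks neither deletion nor labels, since the chemistry reads the 3' end and the labels name no floxed exon.

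Promoter sequences are shown for the 5 claudins with a RefSeq entry, as a reference for their start sites. They are the 250 bases before the RefSeq start (GRCm38.p6), 5′ to 3′ on the gene's strand, and 8 of the 9 genes had an entry. Capitals mark matches on either strand to 4 motifs, whose matches do not overlap here. CTTTGA is the core bound by TCF factors. AGATAA is that of GATA factors. TTTATG is that of CDX factors. The E-box, CANNTG, is bound by factors of the Atoh1 class. The Cldn2 entry lies at chrX:139800558-139800807 (+), that of Cldn15 at chr5:136967619-136967868 (+), that of Cldn3 at chr5:134985964-134986213 (+), that of Cldn4 at chr5:134946935-134947184 (-), and that of the first Cldn7 start at chr11:69964529-69964778 (+).
Cldn2: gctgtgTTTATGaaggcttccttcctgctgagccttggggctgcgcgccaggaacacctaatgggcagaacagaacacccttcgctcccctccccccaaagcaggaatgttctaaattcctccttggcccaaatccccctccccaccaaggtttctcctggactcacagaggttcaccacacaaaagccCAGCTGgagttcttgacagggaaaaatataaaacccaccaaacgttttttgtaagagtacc
Cldn15: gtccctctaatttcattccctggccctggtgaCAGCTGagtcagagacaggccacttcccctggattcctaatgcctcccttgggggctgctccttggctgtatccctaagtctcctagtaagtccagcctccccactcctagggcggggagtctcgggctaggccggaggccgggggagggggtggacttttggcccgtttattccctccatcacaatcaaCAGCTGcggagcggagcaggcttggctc
Cldn3: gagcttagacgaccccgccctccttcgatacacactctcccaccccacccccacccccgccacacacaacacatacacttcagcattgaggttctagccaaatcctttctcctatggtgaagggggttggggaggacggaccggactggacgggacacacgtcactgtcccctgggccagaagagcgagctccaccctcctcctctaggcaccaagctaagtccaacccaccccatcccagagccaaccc
Cldn4: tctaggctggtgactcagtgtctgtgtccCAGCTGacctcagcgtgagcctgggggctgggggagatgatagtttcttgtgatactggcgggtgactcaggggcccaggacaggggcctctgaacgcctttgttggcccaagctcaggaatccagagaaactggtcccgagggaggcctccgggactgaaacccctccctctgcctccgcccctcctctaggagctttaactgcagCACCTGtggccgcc
Cldn7: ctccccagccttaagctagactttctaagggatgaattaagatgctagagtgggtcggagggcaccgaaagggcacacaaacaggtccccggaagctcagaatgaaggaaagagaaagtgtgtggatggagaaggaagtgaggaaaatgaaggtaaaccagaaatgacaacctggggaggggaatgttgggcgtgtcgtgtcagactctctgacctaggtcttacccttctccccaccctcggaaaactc
Cldn2 held 1 CDX core at -244 and 1 E-box at -61 relative to the start. Cldn15 held 2 E-boxes, at -218 and -28, and Cldn4 held 2, at -221 and -14. Cldn3 and the first start of Cldn7 held none of the 4 motifs in this window, while the entry of a second Cldn7 start (chr11:69965171-69965420) held 4 E-boxes and is not printed. Over all 32851 promoters of the same length, the TCF core was present in 13.8%, the GATA core in 9.99%, the CDX core in 10.8% and the E-box in 66.2%, so these matches are common and describe letters, not binding.

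By gene body (GRCm38, GENCODE vM21), Cldn2 (ENSMUSG00000047230) lies at chrX:139800828-139811386 (+) and Cldn15 (ENSMUSG00000001739) at chr5:136966616-136975858 (+). Cldn3 (ENSMUSG00000070473) at chr5:134986214-134987472 (+) and Cldn4 (ENSMUSG00000047501) at chr5:134945119-134946934 (-) are single-exon neighbours, 39279 bases apart. Cldn7 (ENSMUSG00000018569) lies at chr11:69964779-69967885 (+) and Cldn23 (ENSMUSG00000055976) at chr8:35824712-35826559 (-). Ocln (ENSMUSG00000021638) lies at chr13:100496507-100552718 (-), Tjp1 (ENSMUSG00000030516) at chr7:65296165-65527781 (-) and F11r (ENSMUSG00000038235) at chr1:171437535-171464603 (+). An exon of the antisense gene Wbscr25 overlaps Cldn3, and Wbscr25 itself had 2.07 to 2.52 CPM over all cells of a library.

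The first question was where along the secretory and progenitor types each gene was high. In CPM the channel-forming claudins had the widest ranges: Cldn2 was highest in stem-like and Paneth cells and Cldn15 in progenitors and goblet precursors. Both were low in EEC-PRE and TUFT, and Cldn15 also in EC and NON-EC. Of the sealing claudins, Cldn3 was highest in goblet types and Cldn4 in EC, NON-EC and Paneth cells. Cldn7, Ocln, Tjp1 and F11r had UMIs in every type of both WT libraries, with 4.09-fold to 6.74-fold between highest and lowest WT mean. The same held for Cldn3, with 6.72-fold. The authors named the types from these same cells, so these levels are a description without a test.

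**Figure D1:**
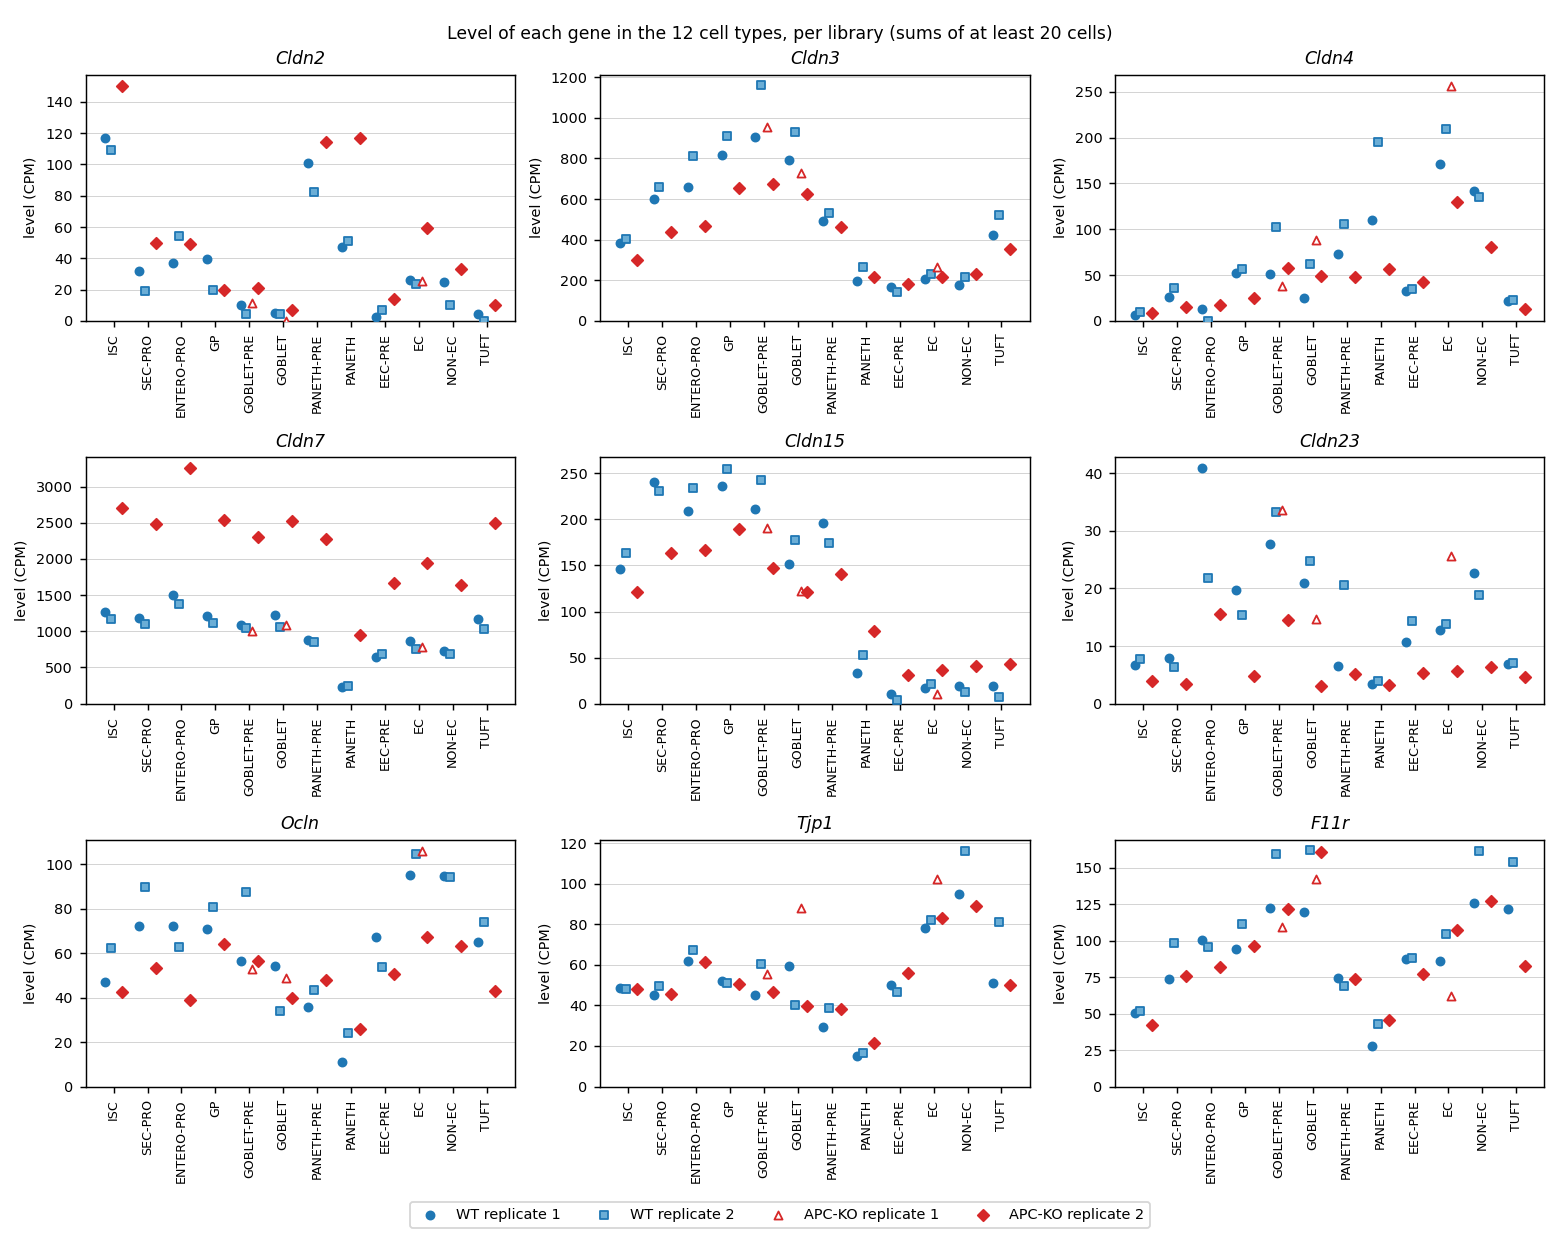
Levels in CPM (vertical axes from 0) of the 9 genes in the 12 cell types, 1 point per library where at least 20 cells were summed: WT replicates 1 and 2 in blue, APC-KO replicate 1 as open and APC-KO replicate 2 as filled red symbols. Cldn2 peaks in ISC and Paneth types, Cldn15 is low in the 4 endocrine and tuft types, and in Cldn7 APC-KO replicate 2 lies above the other libraries in every type.

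Cldn2 forms channels for cations and water. In ISC, the stem cell type, it had 117 CPM in WT replicate 1 and 109 CPM in WT replicate 2 (113 ± 5.28 CPM, SD, n = 2), and in PANETH-PRE 101 and 82.4 CPM. PANETH followed with 47.4 and 51.2 CPM. These first 3 types were apart from each other in both WT libraries, and the other 9 neighbouring pairs in the order overlapped. ENTERO-PRO, GP, SEC-PRO, EC and NON-EC had WT means of 17.4 to 45.6 CPM. GOBLET-PRE had 10.2 and 4.15 CPM, GOBLET 4.93 and 4.25 CPM (4 and 6 UMIs) and EEC-PRE 2.69 and 7.20 CPM (2 and 4 UMIs). TUFT was lowest, with 4 UMIs (4.55 CPM) in WT replicate 1 and 0 UMIs in WT replicate 2, which allows up to 5.30 CPM. In WT barcodes with 1 to 50 UMIs, taken as RNA free in the suspension, Cldn2 had 47.0 and 40.8 CPM. ISC, PANETH-PRE and PANETH lay above this in both WT libraries, PANETH only narrowly in WT replicate 1 (47.4 against 47.0 CPM). ENTERO-PRO lay above it in 1 of 2, and the other 8 types in neither.

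Cldn15 forms sodium-permeable channels. It had 236 and 255 CPM in GP, 241 and 231 CPM in SEC-PRO, 212 and 243 CPM in GOBLET-PRE and 209 and 235 CPM in ENTERO-PRO, and neighbours in this order overlapped, while GP and ENTERO-PRO did not. It was lower in PANETH-PRE, GOBLET and ISC, with WT means of 185, 165 and 155 CPM. PANETH had 33.2 and 53.1 CPM. In EC it had 16.8 and 21.4 CPM, in NON-EC 18.95 and 13.1 CPM, in TUFT 19.3 and 7.07 CPM and in EEC-PRE 10.8 and 3.6 CPM. These 4 types held 2 to 21 UMIs of Cldn15 per WT library, and their levels lay below the 129 and 135 CPM of free RNA. Cldn15 and Cldn2 were both low in EEC-PRE and TUFT. They differed in the goblet types, where Cldn2 was near its lowest, and in EC, where Cldn2 was near its median over the types.

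Cldn3 is a sealing claudin and, with Cldn4, a receptor for a clostridial enterotoxin. It had 907 and 1163 CPM in GOBLET-PRE, 819 and 909 CPM in GP and 793 and 929 CPM in GOBLET, which overlapped. ENTERO-PRO, SEC-PRO, PANETH-PRE and TUFT followed, with WT means of 737, 630, 510.5 and 472 CPM. ISC had a WT mean of 392 CPM, and PANETH had 198 and 264 CPM, which overlapped with EC. EC (218.5 ± 14.4 CPM), NON-EC (195 ± 28.2) and EEC-PRE (154 ± 16.5; SD, n = 2 each) had the lowest WT means, a range of 6.72-fold between GOBLET-PRE and EEC-PRE.

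Cldn4 tightens the junction against sodium. Its order ran otherwise: EC had 172 and 209 CPM, PANETH 110 and 195 CPM and NON-EC 142 and 135 CPM. PANETH overlapped with both, and EC and NON-EC did not overlap. PANETH-PRE had 73.0 and 105 CPM and GOBLET-PRE 51.1 and 103 CPM. Its lowest levels were in TUFT (21.6 and 23.0 CPM), in ISC (6.42 and 9.22 CPM) and in ENTERO-PRO, with 13.2 CPM (10 UMIs) in WT replicate 1 and 0 UMIs in WT replicate 2, which allows up to 6.51 CPM. The neighbours Cldn3 and Cldn4 had a correlation over the 12 types of r = -0.39 (Pearson, log2(CPM + 10), WT mean), given as a description of 12 points that share libraries.

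Cldn7, a claudin known to bind the adhesion protein EpCAM, had 1505 and 1379 CPM in ENTERO-PRO and WT means of 665 to 1214 CPM in the 10 types between it and PANETH. PANETH had 228 and 237 CPM. Cldn23 rested on few UMIs: ENTERO-PRO had 40.8 and 21.7 CPM (31 and 10 UMIs), GOBLET-PRE 27.6 and 33.2 CPM, and PANETH 3.39 and 3.86 CPM (5 and 8 UMIs). The 2 highest types of Cldn23 overlapped.

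Of the general junction proteins, Ocln, a membrane protein of the MARVEL family, had 95.01 and 105 CPM in EC and 94.8 and 94.5 CPM in NON-EC, against 10.8 and 24.2 CPM in PANETH. Tjp1 had 94.8 and 116 CPM in NON-EC, 78.2 and 82.3 CPM in EC and 14.9 and 16.4 CPM in PANETH. F11r had 126 and 161 CPM in NON-EC, 120 and 162 CPM in GOBLET and 27.8 and 42.5 CPM in PANETH. For these 3 genes EC or NON-EC had the highest WT mean in CPM and PANETH the lowest, while GOBLET was second for F11r and among the lowest for Ocln. In PANETH the 3 genes lay below their levels in free RNA, which were 59.6 and 65.3 CPM for Ocln, 50.6 and 34.9 CPM for Tjp1 and 62.3 and 89.0 CPM for F11r in WT, and so did Cldn7 (908 and 915 CPM in free RNA).

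The low end of these orders moved with the denominator. Secretory transcripts made up a large share of the PANETH and GOBLET sums: summed Paneth markers reached 393321 CPM in PANETH and goblet markers 432594 CPM in GOBLET. With TMM scaling over the 48 sums, chosen after seeing the data, the factors were 0.333 and 0.387 for PANETH and 1.43 and 1.51 for NON-EC in WT. In CPM, PANETH was lowest for 5 of 9 members, and for 4 of the 8 members of at least 20 CPM. Of 6059 genes of at least 20 CPM, 64.8% also had their lowest level there, and so did 33 of 38 such genes of the other junction lists. On the TMM scale PANETH was lowest for 0 of 9 members, against 8.5% of genes and 3 of 38. The range of Cldn4 (62.3-fold) then exceeded that of Cldn15 (46.2-fold). The range between highest and lowest type was 5.71-fold in CPM and 1.96-fold on the TMM scale for Ocln, and 6.74-fold and 2.16-fold for Tjp1. Cldn4 and Cldn2 then were highest in PANETH, at 418 and 137.5 TMM-scaled CPM, and Cldn3, Cldn7, Cldn23, Tjp1 and F11r in GOBLET. The low ends of Cldn2 (TUFT), Cldn3 and Cldn15 (EEC-PRE) and Cldn4 (ENTERO-PRO) were the same on both scales. For Ocln and Tjp1 the lowest type on the TMM scale was PANETH-PRE, at 44.0 and 37.7 TMM-scaled CPM, with PANETH at 47.5 and 43.6. For Cldn7 it was NON-EC, for Cldn23 TUFT and for F11r ISC.

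**Figure D2:**
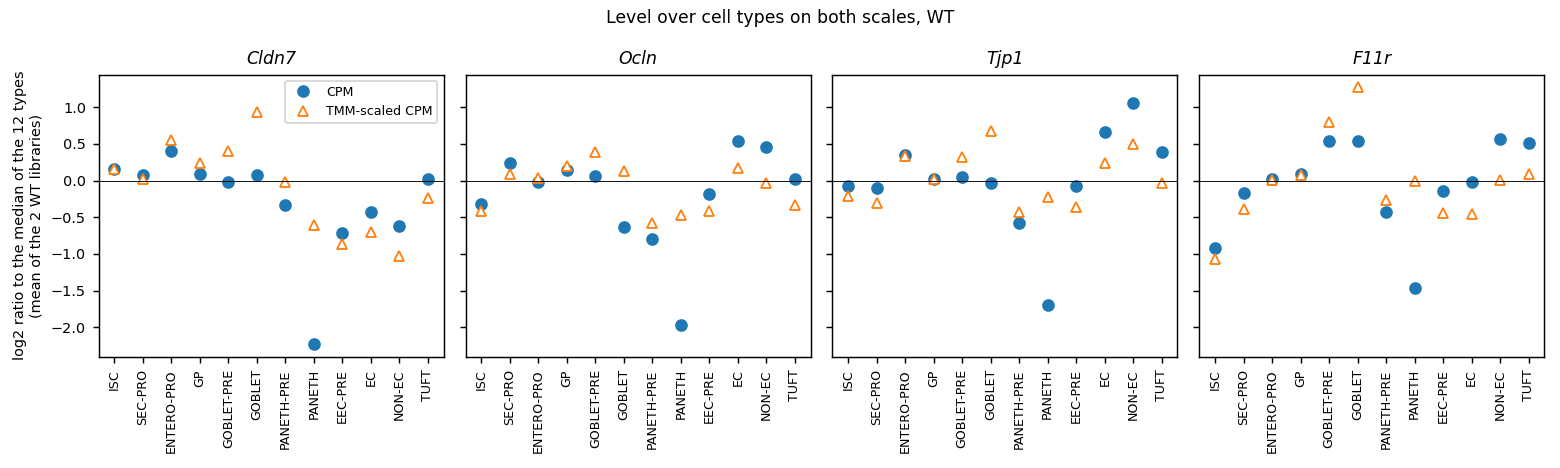
log2 ratio of each type's level to the median of the 12 types (mean of the 2 WT libraries) for Cldn7, Ocln, Tjp1 and F11r, in CPM (filled circles) and TMM-scaled CPM (open triangles). PANETH lies far below the other types in CPM for Ocln and Tjp1 and near them on the TMM scale, where the range of Ocln is 1.96-fold.

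The orders were partly repeatable between libraries. The highest of the 12 types was the same in both WT libraries for 6 of 9 members (54.4% of 13345 genes), and for 6 of 9 it was also that of APC-KO replicate 2 (37.9%). The lowest type was the same in both WT libraries for 7 of 9 (53.1%), and also in APC-KO replicate 2 for 5 of 9 (28.2%). Among EC, GOBLET-PRE and GOBLET, the highest type was the same in all 4 libraries for 8 of 9 members (57.2%), F11r being the exception, and the lowest for 5 of 9 (40.8%).

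The genes whose level over the 12 WT types was most like that of a member are listed by Pearson correlation of log2(CPM + 10), over 12 points that share libraries and denominators. They were Aqp1 (r = 0.85), a water channel, Creg1 (0.84) and H2-Eb1 (0.80) for Cldn2, and Chpt1 (0.96), Heatr5a (0.95) and B4galnt1 (0.94) for Cldn15. For Cldn3 they were Osbpl6, BC030870 and Lgals9 (0.95 to 0.96), for Cldn4 Sqstm1, Nr4a1 and Cxxc5 (0.86 to 0.89) and for Cldn7 Zfp706, Pfn1 and Gapdh (0.96 to 0.97). Ocln was most like Nub1, Angel2 and Itgb1 (0.96 to 0.98), Tjp1 like Rala, Ncoa1 and Trappc8 (0.96 to 0.98), and F11r like Gabarap, Lasp1 and Rab11a (0.93 to 0.95). Among members the highest values were 0.91 for Ocln with Tjp1 and 0.85 for Cldn3 with Cldn15, and the lowest was -0.73 for Cldn2 with F11r. Cldn23 averaged 15.6 CPM over the types, under the 20 CPM asked for.

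The second question was whether the 9 genes differed between WT and APC-KO. Cldn7 was about 2-fold higher or more in APC-KO replicate 2. In APC-KO replicate 1 it was near the WT level over all cells, but above it in the Paneth lineage. Cldn2 was higher and Cldn23 lower in APC-KO replicate 2. No member passed the threshold in any of the 6 fits of genotype. By edgeR, Cldn2 and Cldn4 differed in their genotype effect between the Paneth and the goblet lineage. Neither was called by the DESeq2 Wald test. Without APC-KO replicate 2 the difference nearly vanished for Cldn4 and was smaller for Cldn2. Sums were compared with edgeR's quasi-likelihood test at a Benjamini-Hochberg adjusted p under 0.05 over all genes tested, with n = 2 libraries per genotype. PANETH and PANETH-PRE cells were summed as the Paneth lineage (27 cells in APC-KO replicate 1), and ISC, SEC-PRO and ENTERO-PRO cells as progenitors (29 cells there).

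By edgeR, 0 of 9 members were called over all cells (0% of 13345 genes), in EC (0% of 8690), in GOBLET-PRE (0.00974% of 10272), in the Paneth lineage (0.663% of 8599) and among progenitors (0.92% of 11092), and 0 of 8 in GOBLET (0.0837% of 5974), where Cldn2 was not tested. At an unadjusted p under 0.05 by edgeR there were 0 of 9 over all cells (3.71% of genes), 2 in EC (8.39%), 1 in GOBLET-PRE (7.95%), 2 in GOBLET (11.2%), 3 in the Paneth lineage (14.8%) and 1 among progenitors (12.4%). The DESeq2 Wald test called 0 members in each of these fits, but gave no adjusted p for 3 members in EC, 7 in the Paneth lineage and 2 among progenitors, which could not be called. The WT and APC-KO libraries did not overlap in CPM for 2 of 9 members over all cells (34.5% of genes), 1 in EC (38.9%), 3 in GOBLET-PRE (41.8%), 3 in GOBLET (44%), 4 in the Paneth lineage (51.2%) and 3 among progenitors (43.1%).

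**Figure D3:**
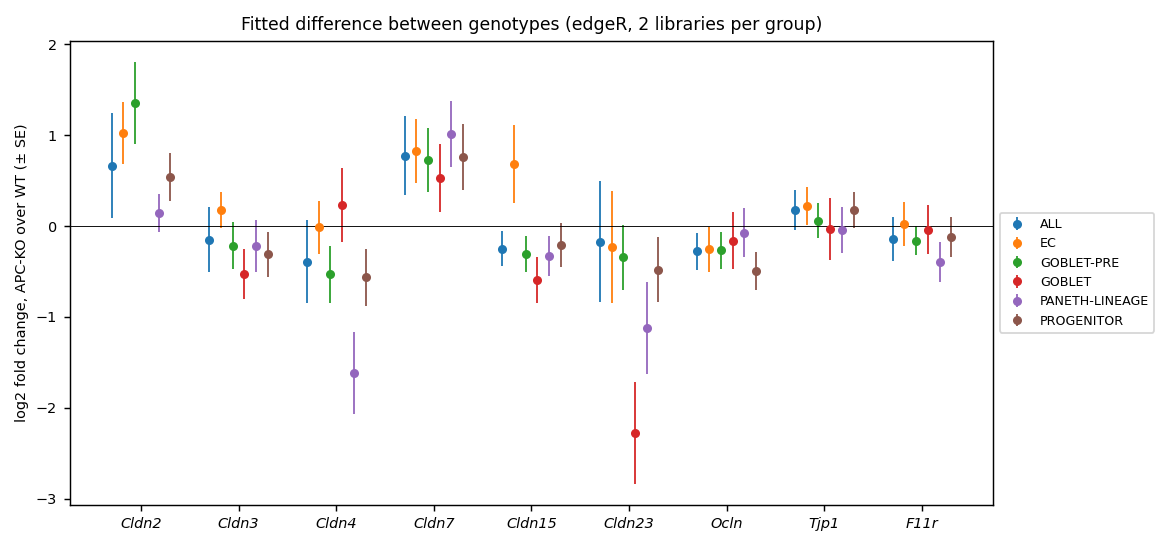
Fitted log2 fold change of APC-KO over WT (edgeR, 2 libraries per genotype) for each gene in the 6 sums, with bars of 1 SE. Cldn7 is above 0 in all 6 sums, Cldn23 is lowest in GOBLET at -2.28, Cldn4 is lowest in the Paneth lineage at -1.62, and none passed the adjusted threshold.

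Cldn7 had 1067 and 962 CPM over all cells in the WT libraries, 929 CPM in APC-KO replicate 1 and 2400 CPM in APC-KO replicate 2. Over all cells the genotypes therefore overlapped, and the difference lay between the 2 APC-KO libraries. In PANETH, APC-KO replicate 1 had 370 CPM (16 cells) against 228 and 237 CPM in WT. In PANETH-PRE it had 1063 CPM (11 cells) against 878 and 856 CPM in WT. The Paneth lineage sums did not overlap, and there the median gene lay 0.50 (log2) higher in CPM before TMM scaling. APC-KO replicate 2 was above the WT mean in 12 of 12 types, by 2.15-fold in GOBLET-PRE to 4.10-fold in PANETH (median 2.26-fold), and by 2.03-fold to 2.72-fold on the TMM scale. In the types with at least 20 cells of APC-KO replicate 1, that library had 787 CPM in EC (WT 861 and 760), 997 CPM in GOBLET-PRE (WT 1088 and 1049) and 1092 CPM in GOBLET (WT 1225 and 1065). A rise of at least 2-fold in all 12 types of APC-KO replicate 2 was met by 0.38% of 6059 genes of at least 20 CPM and, of the members, by Cldn7 alone. For APC-KO replicate 1 a rise of at least 2-fold in EC, GOBLET-PRE and GOBLET was met by 0 members (0.165% of genes).

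The fitted log2 fold change of Cldn7 was 0.78 (SE 0.44) over all cells, 0.83 (SE 0.35) in EC, 0.73 (SE 0.36) in GOBLET-PRE, 0.53 (SE 0.37) in GOBLET, 1.02 (SE 0.36) in the Paneth lineage and 0.76 (SE 0.36) among progenitors, with edgeR adjusted p from 0.215 to 1.00. With 1 APC-KO library left, here and below, that library is assumed to vary as the WT libraries do. Without APC-KO replicate 1, the fitted change of Cldn7 was 1.30 in EC, 1.36 in the Paneth lineage and 1.28 among progenitors. Without APC-KO replicate 2 it was -0.32 in GOBLET and -0.12 among progenitors. In barcodes with 1 to 50 UMIs Cldn7 also stood highest in APC-KO replicate 2, with 1459 CPM against 908, 915 and 727 CPM in WT replicates 1 and 2 and APC-KO replicate 1. With free RNA subtracted at 5% of each sum, the fitted log2 changes of Cldn7 in the 6 sums were 0.53 to 1.04. Of the genes within 50 kb on chromosome 11, Elp5, Eif5a, Gabarap and Ctdnep1 had ratios of APC-KO replicate 2 to the WT mean of 0.961, 0.985, 0.807 and 0.812, and Gps2 of 1.63, against 2.37 for Cldn7.

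**Figure D4:**
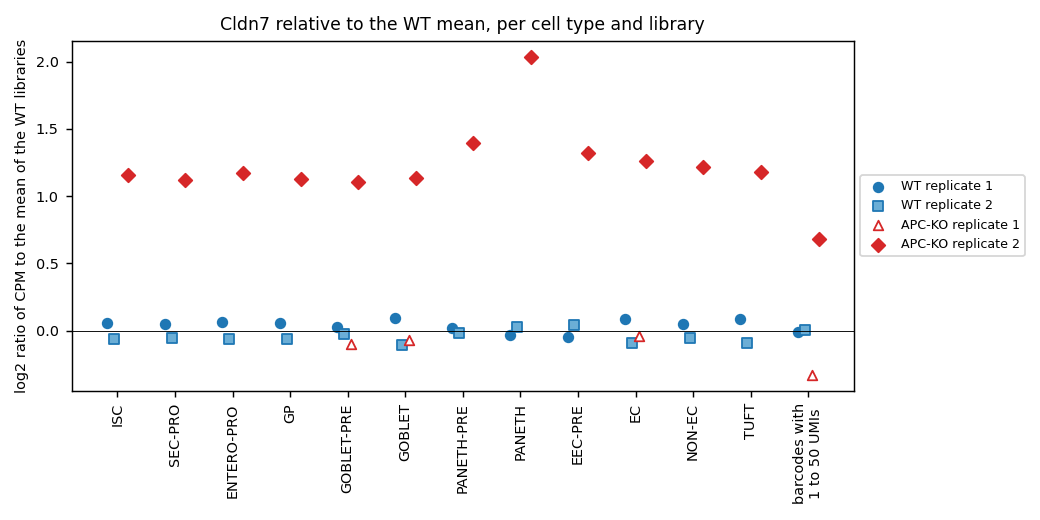
log2 ratio of the Cldn7 level (CPM) to the mean of the 2 WT libraries in each cell type, 1 point per library with at least 20 cells, and in barcodes with 1 to 50 UMIs. APC-KO replicate 2 lies above 1 in all 12 types (at least 2.15-fold), and APC-KO replicate 1 lies near 0 in the 3 types it has.

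Cldn2 had 38.5 and 23.7 CPM over all WT cells, against 19.3 and 72.5 CPM over all APC-KO cells, so the genotypes overlapped. APC-KO replicate 2 was above the WT mean in 11 of 12 types, GP being the exception at 0.66-fold. In GOBLET-PRE it had 10.2 and 4.15 CPM in the WT libraries, against 11.2 (20 UMIs) and 21.0 CPM in the APC-KO libraries, without overlap, and the fit gave 1.35 ± 0.45 (fitted log2 change and SE; edgeR adjusted p 0.610). Without WT replicate 1, which leaves 1 WT library, this was 2.16. In EC Cldn2 had 26.3 and 23.5 CPM in the WT libraries, against 25.6 (7 UMIs) and 59.2 CPM in the APC-KO libraries, also below free RNA. The fit gave 1.03 ± 0.34 (fitted log2 change and SE, edgeR adjusted p 0.482), and 1.27 without APC-KO replicate 1. Among progenitors it was 0.54, but -0.39 without APC-KO replicate 2 and -0.67 in an equal mix of the 3 types. In that mix the median over all genes was -0.49, and APC-KO replicate 1 entered with 0 UMIs of Cldn2 in 5 SEC-PRO cells. Over all cells it was 0.67. There it turned to -0.49 with APC-KO replicate 2 left out and was 1.23 with APC-KO replicate 1 left out.

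The comparison of lineages asked whether the genotype effect was the same in Paneth and goblet cells, which both lie downstream of Atoh1. In the Paneth lineage Cldn2 had 63.1 and 56.6 CPM in the WT libraries, against 76.3 and 116 CPM in the APC-KO libraries, and in the same sums the median gene lay 0.50 (log2) higher in CPM before TMM scaling. After scaling, the log2 fold change of Cldn2 was 0.14 (SE 0.21). The difference between the Paneth and goblet lineage effects, with library as a block, was -1.27 on the log2 scale (SE 0.28, adjusted p 0.00474, edgeR), the Paneth effect being the lower. Cldn4 gave -1.52 (SE 0.26, adjusted p 0.000143, edgeR). These were 2 of 9 members called, both lower, where 1.75% of 10982 genes were called and 1.2% called lower. The DESeq2 Wald test called neither, with -1.15 (adjusted p 0.631) for Cldn2 and -1.16 (adjusted p 0.791) for Cldn4.

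Cldn4 had 110 and 195 CPM in PANETH in WT, against 111 (20 UMIs) and 56.4 CPM in APC-KO. In PANETH-PRE it had 73.0 and 105 CPM in the WT libraries, against 93.3 (10 UMIs) and 48.2 CPM in the APC-KO libraries. APC-KO replicate 1 lay within or near the WT values in both types, and APC-KO replicate 2 below them. In PANETH of APC-KO replicate 2, summed Paneth markers were 276440 CPM against 400104 and 386539 CPM in WT, and goblet markers 76984 against 30174 and 18873 CPM. In its PANETH-PRE, Paneth markers were 41344 CPM against 130252 and 110888 CPM. The part of these differences in the Cldn4 and Cldn2 values was not tested. In the goblet types the genotypes overlapped: GOBLET-PRE had 51.1 and 103 CPM in the WT libraries, against 37.6 and 57.9 CPM in the APC-KO ones. GOBLET had 24.7 and 61.6 CPM against 88.1 (18 UMIs) and 48.9 CPM, in the same order. In the Paneth lineage the log2 fold change of Cldn4 was -1.62 (SE 0.45, adjusted p 0.127, edgeR). It was -2.27 without APC-KO replicate 1. With cells thinned to 2000 UMIs it passed at -1.95, where 128 of 4851 genes were called. PANETH cells were 46.5% and 67.1% of the Paneth lineage in WT and 59.3% and 31.3% in APC-KO, and the part of this mix in the lineage values was not tested. The difference between lineages fell to -0.06 for Cldn4 and to -0.60 for Cldn2 without APC-KO replicate 2, neither called, and Cldn2 was also not called without WT replicate 2 (-0.76) or with thinned cells (-1.17, adjusted p 0.261, edgeR).

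**Figure D5:**
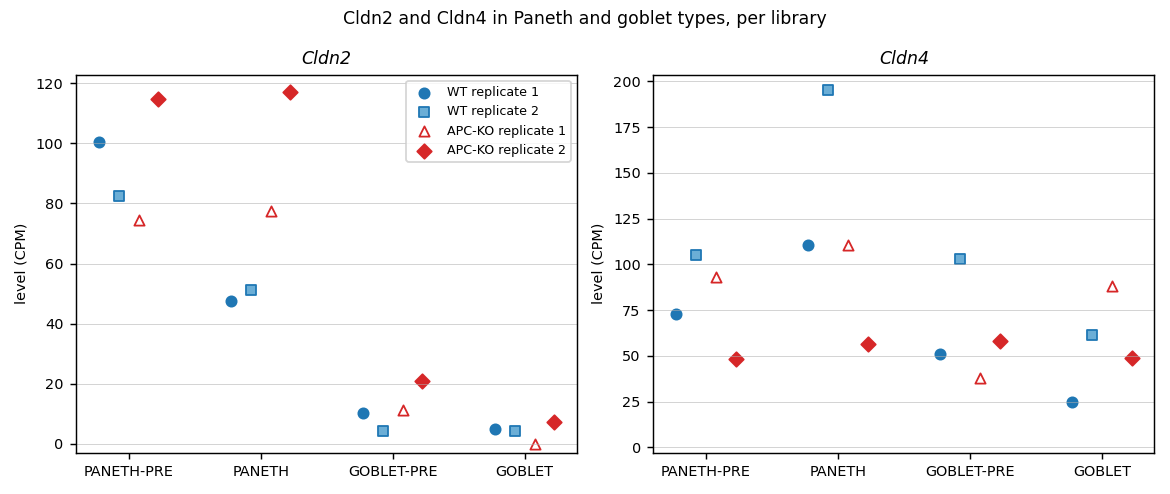
Levels (CPM) of Cldn2 and Cldn4 in the 2 Paneth and the 2 goblet types, 1 point per library; the points of APC-KO replicate 1 rest on 11 PANETH-PRE, 16 PANETH and 28 GOBLET cells. Cldn4 in PANETH is lowest in APC-KO replicate 2 at 56.4 CPM, and Cldn2 there is highest in that library at 117 CPM.

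Cldn23 was below the WT mean in all 12 types of APC-KO replicate 2, at 0.13-fold to 0.90-fold. In GOBLET it had 21.0 and 24.8 CPM (17 and 35 UMIs) in WT and 14.7 and 3.06 CPM (3 UMIs each) in APC-KO, without overlap, and the fit gave -2.28 ± 0.56 (fitted log2 change and SE; edgeR adjusted p 0.261). The fit of this gene rests on very few UMIs. In the Paneth lineage it was -1.13 (SE 0.51, adjusted p 0.334, edgeR). Over all cells Cldn23 had 17.0 and 19.4 CPM in the WT libraries, against 25.9 and 6.96 CPM in the APC-KO libraries. The 2 APC-KO libraries thus lay on either side of WT. The log2 fold change was -0.17, and -1.37 without APC-KO replicate 1.

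Cldn15 had lower levels in APC-KO in GOBLET, with 152 and 178 CPM in WT against 122 (25 UMIs) and 121 CPM, and the fit gave -0.59 ± 0.25 (fitted log2 change and SE; edgeR adjusted p 0.419). In EC the order was not the same: 16.8 and 21.4 (WT) against 10.98 (3 UMIs) and 36.4 CPM (APC-KO). The fit gave 0.68 ± 0.43 there (log2 change and SE; edgeR adjusted p 0.699), and -0.69 without APC-KO replicate 2. The EC effect exceeded the goblet lineage effect by 1.11 (SE 0.39, adjusted p 0.550, edgeR), and by 1.54 without APC-KO replicate 1. Of the members 0 of 9 were called in that comparison, where 0.118% of 10982 genes were, and 1 had an unadjusted p under 0.05 by edgeR (6.15%). Summed goblet markers in EC moved the same way, with 7824 and 5559 CPM in WT against 4315 and 15209 CPM in APC-KO replicates 1 and 2, and their part in the Cldn15 value was not tested. In TUFT of APC-KO replicate 2 Cldn15 had 42.9 CPM against 19.3 and 7.07 CPM in WT, beside goblet marker sums of 26637 against 4948 and 3536 CPM.

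Cldn3 was lower in APC-KO in GOBLET, with 793 and 929 (WT) against 730 and 624 CPM (APC-KO), and a fitted log2 change of -0.53 (SE 0.27, edgeR adjusted p 0.493) that did not pass. In GOBLET-PRE the libraries overlapped, at 907 and 1163 (WT) against 953 and 673 CPM (APC-KO), with a fitted -0.21. Among progenitors Cldn3 had 503 and 588 CPM in the WT libraries, against 458 and 379 CPM in the APC-KO libraries, with a fitted -0.31. ISC cells were 46.6% and 33.5% of progenitors in WT and 44.8% and 48.3% in APC-KO. In ISC, SEC-PRO and ENTERO-PRO the WT means were 392, 630 and 737 CPM. There APC-KO replicate 1 had 211 (16 UMIs), 622 and 661 CPM, and APC-KO replicate 2 had 300, 437 and 469 CPM. The part of this mix in the progenitor values was not tested. The Cldn3 level in CPM was higher in the APC-KO Paneth lineage, 368 and 361 against 284 and 311 CPM, while the fitted log2 fold change was -0.22, relative to the median shift of 0.50 that TMM scaling removes. The direction there depends on the scaling. Within the types, APC-KO replicate 2 was at 0.90-fold of the WT mean in PANETH-PRE and 0.93-fold in PANETH. The part of the mix of these types, given above, in the lineage sum was not tested. Of the 4 members without overlap there (Cldn2, Cldn3, Cldn7 and Tjp1), all 4 were higher in APC-KO, where 48.5% of genes were higher and 2.72% lower without overlap. The lineage difference of Cldn3 was 0.02 (adjusted p 1.00, edgeR).

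Ocln, F11r and the scaffold Tjp1 had fitted log2 fold changes between -0.50 and 0.22 in the 6 sums. Ocln had 60.5 and 77.4 CPM among progenitors in WT and 46.3 (8 UMIs) and 45.4 CPM in APC-KO, without overlap (log2 fold change -0.50, SE 0.21, adjusted p 0.351, edgeR). Tjp1 did not overlap in EC, at 78.2 and 82.3 CPM in WT against 102 and 83.1 CPM, although APC-KO replicate 2 exceeded the higher WT value by less than 1 CPM. F11r overlapped in 5 of the 6 sums and not in GOBLET-PRE, where WT had 122 and 160 CPM and APC-KO 109 and 122 CPM. For the 43 pairs of member and fit not given above, the log2 fold change ranged from -0.56 to 0.45 and the lowest adjusted p was 0.449 (edgeR).

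Other genes of the junction were counted in the same fits from 4 lists. Of 22 other claudins and claudin-domain genes 21 were in the matrices and 6 were tested over all cells; Cldnd1 (38.8 CPM mean of the 4 libraries), Cldn12 (17.5) and Cldn6 (0.84) were the highest. All 6 lay lower in APC-KO by the fit and none was called, with a median log2 fold change of -0.73 beside 0.01 over all genes. Genes of this list below Cldn12 averaged at most 0.84 CPM, so the median rests largely on genes near the floor. Cldnd1 had 39.1 and 45.8 CPM in WT against 34.6 and 35.8 CPM in APC-KO. Cldn12 had 17.1 and 19.7 against 15.9 and 17.2 CPM. Among 12 other tight junction membrane proteins Epcam, the partner of claudin-7, had 1909 and 1814 CPM in the WT libraries, against 1749 and 1710 CPM in the APC-KO libraries, Lsr 158 and 157 against 168 and 148 CPM, and Cxadr 126 and 182 against 127 and 105 CPM. Epcam thus stayed within a narrow range in the library where Cldn7 was high. Of 22 plaque and polarity genes Ybx3 and Tjp3 were among the highest, and of 14 adherens junction and desmosome genes Cdh1, Cdh17 and Dsp. In each of the 6 fits of genotype and both lineage comparisons edgeR called 0 genes of each of the 4 lists. At an unadjusted p under 0.05 by edgeR the Paneth lineage had 1 of 7 other membrane proteins, 3 of 17 plaque genes and 1 of 14 adherens and desmosome genes, and GOBLET had 1 of 7, 2 of 15 and 2 of 14, beside 14.8% and 11.2% of all genes.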

How the data were processed

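The authors deposited unfiltered gene by barcode matrices of UMI counts, made with Cell Ranger 3.0.2 and STAR on mm10 per the submitters' processing notes, and tables that give each kept cell a library, a cell type name, its counts of UMIs and genes, and its mitochondrial percent. In the deposited tables, kept cells had 901 to 2999 genes each and a mitochondrial percent under 7. How cells were named and doublets were treated is not given in the sources used here.

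UMIs were summed per type and library with Python 3.11.15 and scaled to CPM. Sums with at least 20 cells per library were compared in R 4.3.3 by edgeR 4.0.16 (TMM, filterByExpr, quasi-likelihood test, Benjamini-Hochberg at 0.05). The lineage comparison fitted EC, goblet and Paneth lineage sums with library as a block. Alternatives were DESeq2 1.42.0 (size factors, Wald test), no filter beyond 1 count, leaving out each library, a cell minimum of 2000 UMIs, thinning to 2000 UMIs, 5% free RNA subtracted, no defensin, ribosomal protein or mitochondrial genes, a replicate block, and equal mixes of types (limma 3.58.1 on log2(CPM + 1)). TMM scaling over types and a crossed block were added after seeing the data. On simulated data with 200 genes changed by 2 (log2), edgeR called 155 of 196 over all cells, 165 of 187 in the Paneth lineage and 142 of 197 for its difference from the goblet lineage, while unchanged genes made up 13.4%, 5.71% and 7.19% of the calls. Among progenitors it called 187 of 197, and unchanged genes made up 16.9% of the calls, the highest share of these fits. Named genes were the 9 members, for each member of at least 20 CPM the 3 genes most like it, and of each other list the 3 highest and any called, except 1 result that is not reported here. The members and lists were chosen with earlier results of these data known.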

Additional observations from a re-analysis of the deposited data

Results flagged for a closer look

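The genotype effect differed between the Paneth and the goblet lineage for 2 members by the test of the difference itself, at -1.27 for Cldn2 and -1.52 for Cldn4 (log2, edgeR). The DESeq2 Wald test called neither. Without APC-KO replicate 2 the difference nearly vanished for Cldn4 and was smaller for Cldn2. Cldn3 lay higher in both APC-KO libraries than in both WT libraries in the Paneth lineage, by 67.0 CPM between the means, and lower in both in GOBLET, by -184 CPM, and among progenitors, by -128 CPM. The difference between GOBLET or progenitors and the Paneth lineage was not tested on this scale, and the test of the lineages after TMM scaling gave 0.02 for Cldn3. Within the Paneth types APC-KO replicate 2 was at 0.90-fold of the WT mean of Cldn3 in PANETH-PRE and 0.93-fold in PANETH, and PANETH cells were 31.3% of its Paneth lineage against 46.5% and 67.1% in WT. ISC cells were 46.6% and 33.5% of progenitors in WT and 44.8% and 48.3% in APC-KO.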

How the results depend on the processing

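Counts of members called went from 0 to 1 with no filter on low counts in GOBLET-PRE (Cldn2, 1.32), GOBLET (Cldn23, -2.31) and the Paneth lineage (Cldn4, -1.67), and to 2 with thinned cells in the Paneth lineage (Cldn4 and Cldn7). Calls over all genes also rose. Without the filter they were 280 of 15920, 79 of 12750 and 477 of 15042 in these 3 fits, against 1, 5 and 57 with it. Thinned cells gave 128 of 4851 in the Paneth lineage. For the lineage difference, 2 members were called, 0 with the DESeq2 Wald test and 1 with thinned cells. Over all genes these calls were 192 of 10982, 18 of 10982 and 87 of 8329. Fits with 1 library left out keep a single library in 1 genotype, so calls of members in them are not counted here. The numbers of the libraries do not mark a pairing in the labels, and deviations of WT and APC-KO replicate 1 had a correlation of -0.31. With a replicate block, 1 member was called in GOBLET-PRE (Cldn2, 1.44) and 1 in GOBLET (Cldn23, -2.25), and it changed no other call of a member. Over all genes the block gave 110 calls of 10272 in GOBLET-PRE and 73 of 5974 in GOBLET. With crossed numbers 1 member was called in the Paneth lineage and 0 in the other 5 fits, with 49 genes in all there.

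With 1 library left out at a time, the log2 fold change ranged over both signs for Cldn2 over all cells (-0.49 to 1.23) and among progenitors (-0.39 to 0.69), for Cldn3 in GOBLET-PRE (-0.55 to 0.055) and the Paneth lineage (-0.55 to 0.074), for Cldn7 in GOBLET (-0.32 to 1.03) and among progenitors (-0.12 to 1.28), for Cldn15 in EC (-0.69 to 0.99) and for Cldn23 over all cells (-1.37 to 0.71). In each of these the end that turned the sign was without APC-KO replicate 2 and the other end without APC-KO replicate 1. Cldn23 over all cells was also above 0 (0.016) without WT replicate 2. The EC and goblet difference ranged from -0.024 to 0.12 for Cldn7 and from -0.61 to 1.54 for Cldn15, between the same libraries left out, and the Paneth and goblet difference of Cldn3 from -0.062 without WT replicate 2 to 0.089 without WT replicate 1. That of Cldn3 was also -0.056 with thinned cells and -0.0087 with free RNA subtracted, and Cldn2 among progenitors was -0.67 in the equal mix, where the median of all genes was -0.49 and APC-KO replicate 1 gave 0 UMIs of Cldn2 in 5 SEC-PRO cells. The cause was not tested. Of the 43 other pairs of member and fit, 29 changed sign under at least 1 alternative and 0 were called under any. Over all genes, edgeR called 0 to 483 genes over all cells across the alternatives and 0 to 477 in the Paneth lineage.

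The log2 ratio to the median of the 12 types was also taken under alternatives, for the type that is highest in CPM. In CPM the highest WT mean and the median were 1035 and 491 for Cldn3, 191 and 48.9 for Cldn4 and 1442 and 1087 for Cldn7. They were 246 and 160 for Cldn15 and 99.9 and 68.6 for Ocln. With thinned cells the ratio was 2.19 for Cldn4, 0.47 for Cldn7, 0.46 for Cldn15 and 0.64 for Ocln. With free RNA subtracted it was 0.42 for Cldn7, close to that from the CPM above. Without defensin, ribosomal protein and mitochondrial genes it was 0.92 for Cldn3, 0.57 for Cldn7, 0.72 for Cldn15 and 0.41 for Ocln. On the TMM scale, for that same type and not the type highest there, it was 1.15 for Cldn4, 0.55 for Cldn7, 0.52 for Cldn15, 0.17 for Ocln, 0.50 for Tjp1 and 0.0075 for F11r. With 1 WT library it ranged from 0.52 to 0.61 for Ocln. The 356 cells of APC-KO replicate 1 limit each comparison of genotypes.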
